A study of Mus musculus with 4 samples.

Results

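The gasdermins examined here are 7 genes of the mouse files: Gsdmc, Gsdmc2, Gsdmc3, Gsdmc4 and the pseudogene Gsdmcl-ps of the gasdermin C family, with Gsdma and Gsdmd. They were taken by gene name out of 23074 gene symbols, and correspond to 8 of 30028 RefSeq isoforms. The set was chosen by its measured change between mutant and control colon, in which Gsdmc4 was 1 of 8 genes with an adjusted p under 0.05 in the authors' deposited table. The change of the members is therefore described here without a test. In the mutants, the summed level of Gsdmc, Gsdmc2, Gsdmc3 and Gsdmc4 was 268.1 ± 39.0 FPKM (fragments scaled to transcript length and to library size; SD, n = 2), against 502.6 ± 25.6 FPKM (SD, n = 2) in controls, while Gsdmd overlapped between the groups.

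Gasdermins are proteins whose amino-terminal part forms pores in membranes once a protease separates it from the inhibitory carboxy-terminal part. Gsdmd is the member cut by inflammatory caspases downstream of inflammasomes, and its pores let out interleukins and can lead to lytic cell death, called pyroptosis. The gasdermin C genes are expressed in the differentiated epithelium of the mouse large intestine and are known to respond to type 2 cytokines through Stat6. Gsdma is best known from skin and stomach epithelium.

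The RNA came from 2 cm of mouse colon next to the caecum at 6 weeks of age, from a strain given as mixed. The 2 control libraries had the genotype Nkx2.2flox/+ with no Cre transgene listed, while the 2 mutant libraries were Nkx2.2flox/flox with Villin-Cre/+, so the groups differ in Cre as well as in the number of floxed alleles. Villin-Cre recombines in the epithelium of the gut, whereas the RNA came from all cells of the piece. Whether each library is a different animal is not stated, so a p-value speaks only of the variation among 4 libraries, which may be technical. Nkx2-2, the targeted transcription factor gene of enteroendocrine cells, was listed at 0.724 and 0.609 FPKM in the controls and 0.125 and 0.351 FPKM in the mutants. Control 2, mutant 1 and mutant 2 had 1.13, 0.464 and 1.03 times the depth of control 1. The colon genes Car1 and Vil1 were at 15112 FPKM or more and at 257 FPKM or more in every library.

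The gasdermin C genes form a cluster on chromosome 15 of mm9, from 63607526 to 63757008 (149.5 kb), in the order Gsdmc (63607526 to 63640294), Gsdmc2 (63655901 to 63676731), Gsdmc3 (63689280 to 63710113), Gsdmc4 (63722820 to 63743852) and Gsdmcl-ps (63746016 to 63757008). The span also holds 1700065I16Rik, between Gsdmc and Gsdmc2, and Gsdmcl1, between Gsdmc2 and Gsdmc3, which are not members. Gsdmc has 12 exons in the GENCODE transcript compared here, and Gsdmc2, Gsdmc3 and Gsdmc4 have 11 each, all on the minus strand. Gsdmd lies on the plus strand of the same chromosome at 75692769 to 75697834, and Gsdma on the plus strand of chromosome 11 at 98525665 to 98539022. The start of the coding sequence, which encodes the pore-forming end of the protein, shows how alike the copies are. The first 90 coding bases lie at chr15:63734396-63734485 for Gsdmc4, chr15:63700763-63700852 for Gsdmc3, chr15:63667409-63667498 for Gsdmc2 (exon 1 of each GENCODE transcript) and chr15:63636058-63636147 for Gsdmc (exon 2). They are given 5′ to 3′ on the minus strand of mm9, with capitals where a base differs from Gsdmc4.
Gsdmc4: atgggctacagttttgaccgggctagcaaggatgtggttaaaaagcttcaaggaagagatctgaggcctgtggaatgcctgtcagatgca
Gsdmc3: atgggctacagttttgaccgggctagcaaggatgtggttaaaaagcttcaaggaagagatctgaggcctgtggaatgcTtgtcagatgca
Gsdmc2: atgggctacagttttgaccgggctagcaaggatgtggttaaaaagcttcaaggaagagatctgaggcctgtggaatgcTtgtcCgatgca
Gsdmc: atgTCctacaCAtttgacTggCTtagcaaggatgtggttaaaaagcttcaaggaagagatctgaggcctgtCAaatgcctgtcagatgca

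Gsdmc3 differed from Gsdmc4 at 1 of these bases, Gsdmc2 at 2 and Gsdmc at 9. Over the whole coding sequence, Gsdmc2 and Gsdmc3 were identical at 97.1% of 1443 aligned bases, and each matched Gsdmc4 at 93.8% of 1437. Gsdmc matched the other 3 genes at 87.0% to 87.5%. Identity to Gsdmd and Gsdma was 57.0% to 60.2%, on alignments with 193 or more gap bases. Because the copies are so close, stretches of 50 bases were compared with all other GENCODE protein-coding transcripts. A stretch also present in another gene made up 46.6% of Gsdmc3, 43.0% of Gsdmc2, 38.4% of Gsdmc4 and 16.4% of Gsdmc, and 0% of Gsdmd. The Gsdmc3 transcript compared has 1443 bases, all coding, against 2142 bases in RefSeq. Its share is thus not on the same footing, and untranslated bases that other copies may share with it were not counted. The pseudogene Gsdmcl-ps was not in the comparison. Reads from such stretches cannot be given to 1 gene with certainty, so the single values of the gasdermin C genes are less certain than their sum.

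The stretches before the start sites of the deposited gene coordinates were compared because these genes were lower together. These sites differ from the starts of the GENCODE transcripts compared above in all 3 genes printed here. In Gsdmc3 the deposited start is 63710113, against 63700852. In Gsdmc2 and Gsdmc4 the deposited starts are 63676731 and 63743852. Their GENCODE coding sequences begin in exon 1 at 63667498 and 63734485, in transcripts of 1981 and 1988 bases with 1443 coding. What follows holds for windows before the deposited starts only. The 250 bases before the start are at chr15:63676732-63676981 for Gsdmc2, chr15:63710114-63710363 for Gsdmc3 and chr15:63743853-63744102 for Gsdmc4, all on the minus strand of mm9 and printed 5′ to 3′. Capitals mark the 11 positions at which the 3 genes are not all the same.
Gsdmc2: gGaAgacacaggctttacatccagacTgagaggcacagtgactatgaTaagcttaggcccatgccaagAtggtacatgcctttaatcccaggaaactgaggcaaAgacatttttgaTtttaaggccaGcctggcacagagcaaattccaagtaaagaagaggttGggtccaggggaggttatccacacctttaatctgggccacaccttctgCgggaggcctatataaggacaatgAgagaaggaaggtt
Gsdmc3: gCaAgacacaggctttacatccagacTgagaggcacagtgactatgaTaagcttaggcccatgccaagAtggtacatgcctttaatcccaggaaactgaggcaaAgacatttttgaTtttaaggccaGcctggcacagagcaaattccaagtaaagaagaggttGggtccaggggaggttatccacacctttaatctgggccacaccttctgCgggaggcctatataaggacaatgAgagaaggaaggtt
Gsdmc4: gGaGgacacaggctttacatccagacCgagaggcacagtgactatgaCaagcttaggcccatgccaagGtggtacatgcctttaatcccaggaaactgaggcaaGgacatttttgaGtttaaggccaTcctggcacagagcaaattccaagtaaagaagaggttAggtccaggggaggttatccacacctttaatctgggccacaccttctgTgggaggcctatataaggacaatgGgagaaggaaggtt

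Gsdmc2 and Gsdmc3 differed at 1 of these 250 bases, and Gsdmc4 differed from Gsdmc2 at 10 and from Gsdmc3 at 11. The window of Gsdmc aligned to them at 59.5% to 59.7% of 221 to 222 bases with 56 to 58 gap bases. The letters of the TATA box, TATATAA, were searched for after the sequences had been seen. They begin 29 bases before the deposited start in Gsdmc2, Gsdmc3 and Gsdmc4, and are not in the Gsdmc window. Of 22220 protein-coding gene windows of the same length, set before GENCODE gene starts instead, 3.18% hold them on either strand. The STAT6 letters TTC and GAA with 4 bases between them, the letters CAAGTG, the core of NK2-class homeodomain factors, and the letters TTTATNG of CDX factors were in none of the 4 windows. They were in 5.53%, 11.8% and 9.47% of all windows, on either strand.

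**Figure D1:**
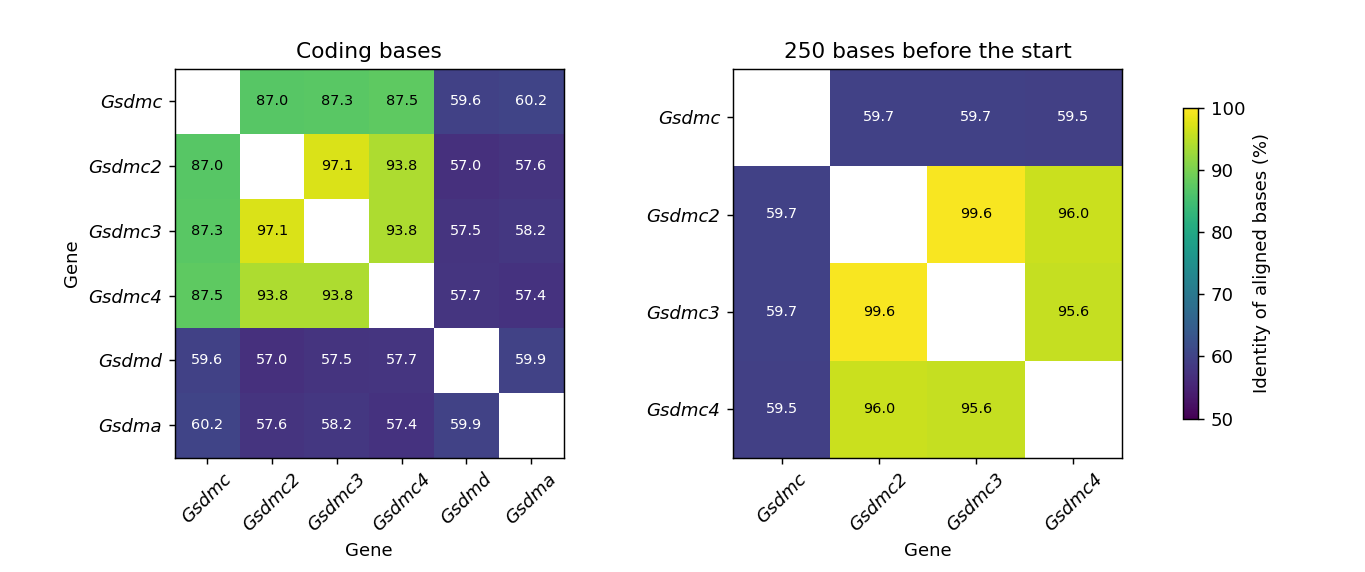
Share of aligned bases that are identical (%, colour and numbers) between pairs of genes, in coding sequence (left) and in the 250 bases before the deposited start (right). Gsdmc2, Gsdmc3 and Gsdmc4 are at 93.8% or above in coding sequence and 95.6% or above before the start, where Gsdmc is under 60%.

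Gsdmc4 was the most abundant gasdermin of the controls, at 253.7 FPKM in control 1 and 283.3 FPKM in control 2, and stood at 146.9 FPKM in mutant 1 and 123.1 FPKM in mutant 2. Its deposited 95% intervals were 247.7 to 259.7 and 277.4 to 289.3 in controls and 140.2 to 153.6 and 119.0 to 127.2 in mutants, so the groups are well apart in counting error. The log2 change on the log2(FPKM + 0.5) scale was −0.99, a 1.99-fold lower level (268.5 ± 21.0 against 135.0 ± 16.8 FPKM, SD, n = 2 each). Gsdmc4 ranked 337 and 295 among all symbols in the controls and 533 and 774 in the mutants.

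Gsdmc2 was at 162.0 and 170.3 FPKM in the controls and at 102.0 and 84.1 FPKM in the mutants (166.1 ± 5.85 against 93.0 ± 12.6, SD, n = 2 each), a log2 change of −0.84. Gsdmc3, the least abundant of the 3 closest copies, was at 58.7 and 58.8 FPKM in the controls and at 41.7 and 30.1 FPKM in the mutants (58.8 ± 0.056 against 35.9 ± 8.17, SD, n = 2 each), a log2 change of −0.72. In both genes the mutant libraries lay below the controls, and mutant 2 was the lower mutant. The pseudogene Gsdmcl-ps, non-coding in RefSeq, followed at a far lower level, with 1.08 and 1.13 FPKM in controls against 0.332 and 0.449 FPKM in mutants (log2 change −0.85). Its mutant values rest on 4 and 12 implied fragments, the number that the width of the deposited interval gives, against 28 and 32 in the controls.

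Gsdmc, the first gene of the cluster, was listed at 10.1 and 8.22 FPKM in controls against 5.14 and 3.18 FPKM in mutants (9.16 ± 1.33 against 4.16 ± 1.39, SD, n = 2 each; log2 change −1.08). Thus in the FPKM files all 5 members in the cluster had both mutants below both controls, while Gsdmcl1, at 0.155 FPKM or less, did not. That pattern held in 35.1% of all 13997 tested genes, and nothing is read from it, since the set was chosen on this contrast. After median ratio rescaling of the libraries it held in 15.3% of tested genes and still in these 5. To place the size of the changes, 0.872% of tested genes had a change as low as that of Gsdmc4, 1.51% as low as Gsdmc2, 2.51% as low as Gsdmc3, 0.600% as low as Gsdmc and 1.34% as low as Gsdmcl-ps. The median change of all tested genes was −0.17, and relative to it the changes were −0.91 for Gsdmc, −0.67 for Gsdmc2, −0.55 for Gsdmc3, −0.83 for Gsdmc4 and −0.68 for Gsdmcl-ps. In bulk tissue, fewer cells of a type and less RNA per cell cannot be told apart.

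**Figure D2:**
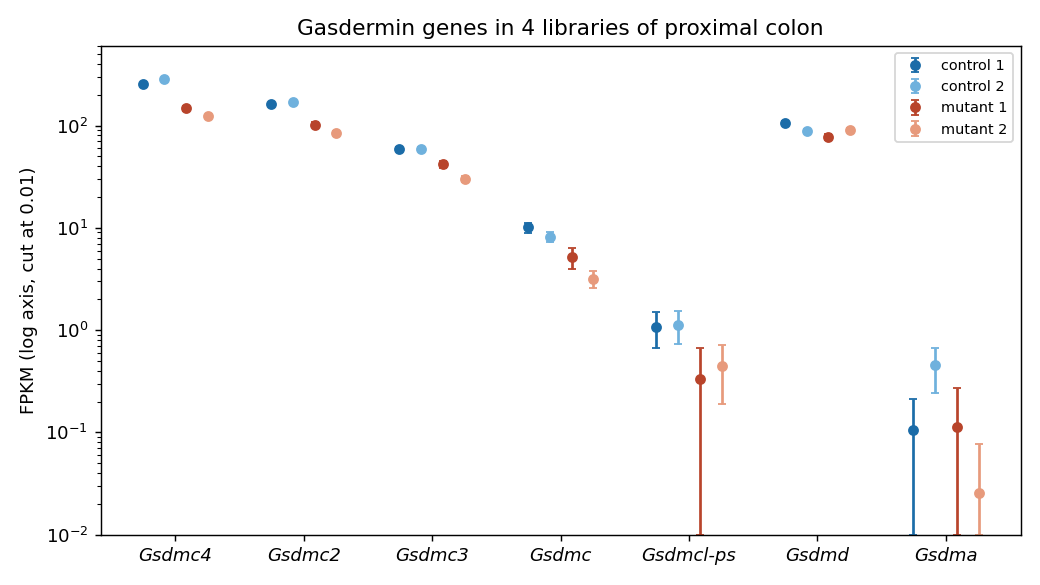
FPKM of each gasdermin gene (log axis) in the 4 libraries, with the deposited 95% interval as bars; intervals that reach 0 run to the lower edge at 0.01. The 5 members in the gasdermin C cluster have both mutants below both controls, from 253.7 and 283.3 to 146.9 and 123.1 FPKM in Gsdmc4, and Gsdmd and Gsdma overlap.

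In the controls the members ran in the order Gsdmc4, Gsdmc2, Gsdmd, Gsdmc3, Gsdmc, Gsdmcl-ps and Gsdma, with no overlap between neighbours. In the mutants Gsdmc2 and Gsdmd overlapped, as did Gsdmcl-ps and Gsdma within their intervals.

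Within the family, the proportions differed little beside the total. Gsdmc4 made up 52.4% and 54.4% of the summed FPKM of the 4 genes in controls and 49.7% and 51.2% in mutants. Gsdmc3 made up 12.1% and 11.3% in controls against 14.1% and 12.5% in mutants. The ratio of Gsdmc4 to Gsdmc2 was 1.57 and 1.66 in controls and 1.44 and 1.46 in mutants, which does not overlap, though the difference is small beside the change in level. Gsdmc2 was the 1 member with more than 1 isoform in the files. NM_177912, of 2077 bases, carried 69.8% and 74.4% of its FPKM in controls and 73.2% and 69.3% in mutants, and NM_001168274, of 2312 bases, the rest. The isoform shares overlapped between the groups while both isoforms were lower in both mutants, at 58.3 to 74.6 against 113.0 to 126.7 FPKM for NM_177912.

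The authors' deposited table, made from counts, gives a second reading of the same libraries. In it, Gsdmc4 had a mean normalized count of 5499.5 in controls and 2993.5 in mutants (ratio 0.544), Gsdmc2 had 2575.2 and 1633.6 (ratio 0.634), and Gsdmc3 had 704.0 and 472.4 (ratio 0.671). These ratios are in the direction of the FPKM values. Among 20834 genes with an adjusted p there, 0.0384% were under 0.05, and Gsdmc4 was the 1 member among them. For Gsdmcl-ps the table gives 30.6 and 10.8.

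Gsdmc differed between the files. The authors' deposited table gives it a mean normalized count of 0.397 in controls and 3.08 in mutants, whereas its FPKM intervals imply 329.3 and 302.3 fragments in the controls and 77.3 and 105.7 in the mutants. The count that its FPKM and length would give, at the median ratio of count to FPKM times length over 8269 genes with 1 isoform, is 248.8 in controls. The deposited count was 0.0016 of that, and 33 of those genes had a ratio as low. The same ratio was 1.02 for Gsdmd, 0.862 for Gsdmc4, 0.634 for Gsdmc2 and 0.491 for Gsdmc3, and over all genes the 5th to the 95th percentile ran from 0.532 to 1.08. Over the 1273 genes of 2.0 to 2.6 kb, a length nearer to the gasdermin C genes, it ran from 0.641 to 1.07. Gsdmc2, Gsdmc3 and Gsdmc lay below that range and Gsdmc4 within it. In mutants the ratios of Gsdmd, Gsdmc4, Gsdmc2 and Gsdmc3 were close to those in controls, at 1.01, 0.839, 0.646 and 0.484, with 0.0245 for Gsdmc. What lies behind the low count of Gsdmc was not tested, and its direction rests on the FPKM files alone.

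**Figure D3:**
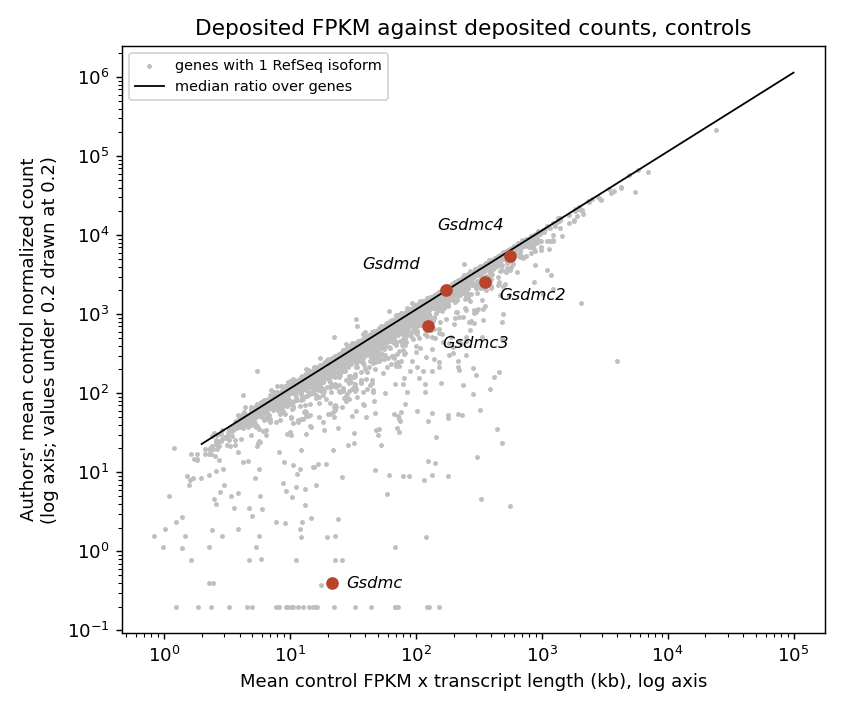
Authors' mean normalized count in controls (vertical, log axis) against mean control FPKM times transcript length in kb (horizontal, log axis) for genes with 1 RefSeq isoform (grey) and for 5 gasdermins (red, with Gsdmc2 at the FPKM-weighted length of its isoforms). Gsdmd lies on the line of the median ratio, Gsdmc4, Gsdmc2 and Gsdmc3 below it, and Gsdmc far below at 0.397.

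Gsdmd, the pore-forming substrate of inflammatory caspases, was at 105.3 and 89.1 FPKM in controls (97.2 ± 11.5, SD, n = 2) and at 77.0 and 91.2 FPKM in mutants (84.1 ± 10.0, SD, n = 2). The groups overlapped, and the log2 change of −0.21 is near the −0.17 of all tested genes. After median ratio rescaling Gsdmd was at 96.7, 85.5, 89.2 and 89.7 in control 1, control 2, mutant 1 and mutant 2. The ratio of Gsdmc4 to Gsdmd, which shares no 50-base stretch with the family, was 2.41 and 3.18 in controls and 1.91 and 1.35 in mutants. In the mutants Gsdmc4 thus lay nearer to the level of Gsdmd.

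Gsdma was close to the limit of detection. It was listed at 0.105 and 0.452 FPKM in controls against 0.114 and 0.0256 FPKM in mutants, from 4, 18.7, 2 and 1 implied fragments. It was the 1 member of 7 under the minimum of 0.5 FPKM on average. Markers of squamous and stomach epithelium, of which 1 of 10 each passed the same minimum, had sums of 1.72 to 4.08 and 0.248 to 1.51 FPKM, and Dsg3, Gkn1 and Tff1 listed at 0 throughout. Of the gasdermins outside the chosen set, Gsdma2 and Gsdma3 were listed at 0 in 3 libraries and Gsdmcl1, which lies between Gsdmc2 and Gsdmc3, at up to 0.155 FPKM. Dfna5, also called Gsdme, was at 7.56 and 12.4 FPKM in controls against 5.80 and 8.26 FPKM in mutants. Dfnb59 was listed at 0.197 FPKM in control 1 and at 0 in the others. Dfna5 was tested with limma, in which 0.0643% of all genes passed, and did not pass (log2 difference −0.46, SE 0.28, adjusted p = 0.825).

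Neighbours of the cluster were compared within 500 kb. Fam49b, next to Gsdmcl-ps at 63760649 to 63892010 of chromosome 15, was at 19.1 and 16.4 FPKM in controls against 11.9 and 16.4 FPKM in mutants (a log2 difference of −0.34 with SE 0.22; adjusted p = 0.825 by limma). Asap1, at 63920101 to 64214481, was at 11.4 and 13.5 FPKM in controls against 12.6 and 9.59 FPKM in mutants (a log2 difference of −0.17 with SE 0.22; adjusted p = 0.837 by limma). Mutant 2 was level with control 2 in Fam49b, and the groups overlapped in Asap1. LOC432958 was listed at 0 in all libraries and 1700065I16Rik at 0.119 FPKM or less.

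The summed markers of surface colonocytes overlapped between the groups, which the gasdermin C sum did not. Of 18 tested markers of surface colonocytes, the differentiated cells at the top of the crypt, 7 had higher and 11 lower values in mutants, 0 passed in limma (2 at an unadjusted p under 0.05) and the median log2 change was −0.12, or 0.07 after median ratio rescaling and 0.09 without control 2. Their summed FPKM was 35431 and 46089 in controls and 40802 and 35220 in mutants, which overlap. Car1, a carbonic anhydrase gene, and 2210415F13Rik carry most of that sum. Car1 was at 15112 and 22063 FPKM in controls against 17320 and 16278 FPKM in mutants, and 2210415F13Rik at 8612 and 10254 against 11154 and 6648 FPKM. Both genes overlapped between the groups. Of the same list, 3 of 18 genes had both mutants below both controls without rescaling, a smaller share than the 35.1% of all tested genes. After median ratio rescaling, which gave 15.3% of all tested genes, the list was not counted, and fewer of the 3 may keep the pattern. Clca4, chosen with its values in view, was 1 of the 3, with a log2 difference of −0.33. Cyp2c55, a cytochrome P450 gene of the large intestine chosen with its values in view, was at 1542.8 and 1906.2 FPKM in controls against 1191.2 and 717.3 FPKM in mutants (log2 difference −0.89, limma adjusted p = 0.825). Slc37a2, a sugar phosphate transporter gene chosen likewise, was at 21.5 and 50.2 FPKM in controls against 6.29 and 15.4 FPKM in mutants (log2 difference −1.69, limma adjusted p = 0.825). The log2 differences of Cyp2c55 and Slc37a2 lie in or below the range of the gasdermin C genes, and that of Clca4 above it. Krt20, a keratin also chosen likewise, had 851.2 and 1168.2 FPKM in controls against 1053.1 and 1265.3 FPKM in mutants. The summed gasdermin C level per unit of Vil1, the villin gene of the epithelial brush border, was 1.86 and 1.62 in controls and 1.15 and 0.771 in mutants. Per unit of Cdx2, the intestinal transcription factor gene, it was 2.32 and 2.82 in controls and 1.95 and 1.34 in mutants. The median log2 changes of crypt base, goblet and tuft cell markers were −0.18, −0.15 and 0.02, with 0 genes passing in limma and 0, 3 and 0 at an unadjusted p under 0.05.

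Immune cell markers were read beside a background of 82.6% of tested genes with lower values in mutants, and 577 lower and 98 higher at an unadjusted p under 0.05 among 13997. All 12 tested T and NK cell markers had lower mean values in mutants (median log2 change −0.75, 0 passed in limma, 7 at an unadjusted p under 0.05). The median was −0.37 without control 1 and −1.08 without control 2. They had a summed FPKM of 295.6 and 193.3 in controls and 124.2 and 132.2 in mutants. Ccl5 was the largest part of that sum, at 153.9 and 98.5 FPKM in controls against 47.2 and 63.8 FPKM in mutants. All 10 tested B cell markers had lower mean values in mutants, but they were high in control 1 alone, at a summed 155.6 FPKM against 17.3 FPKM or less in the other 3 libraries, and their median of −1.35 was 0.37 without control 1 and −2.90 without control 2. The gasdermin C sum was no higher in control 1 (484.5 FPKM) than in control 2 (520.6 FPKM). Macrophage and neutrophil markers, lower in 11 of 11 tested, summed to 823.4 and 552.6 FPKM in controls against 363.5 and 646.9 FPKM in mutants, which overlap. Their median of −0.43 was −0.06 without mutant 1, −0.78 without mutant 2 and −0.21 without control 1. The part of the T and NK cell difference in the gasdermin C change was not tested.

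**Figure D4:**
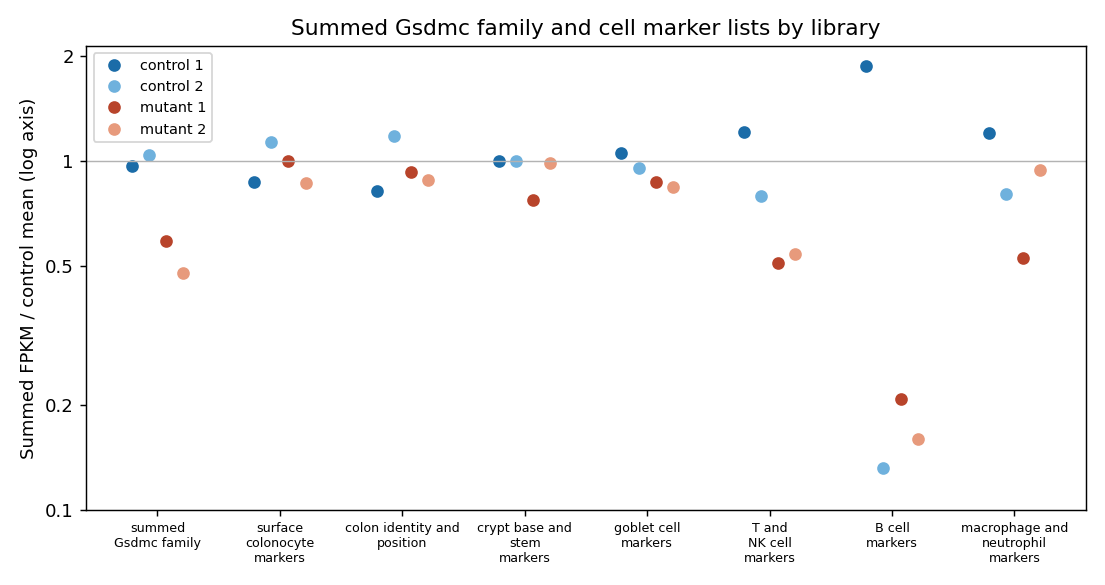
Summed FPKM of 4 gasdermin C genes and of cell marker lists in each library, divided by the mean of the 2 controls (log axis). The gasdermin C sum is at 0.588 and 0.478 in mutants, surface colonocyte markers at 1.00 and 0.864, T and NK cell markers at 0.508 and 0.541, and B cell markers stand out in control 1. Sums weigh abundant genes most. Ccl5 is the largest part for T and NK cells, Lyz2 for macrophages and neutrophils, and Car1 for both surface colonocytes and colon identity.

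The genes that act with gasdermins were described through 6 lists with 53 tested genes, members left out. The lists were drawn up with earlier results of these data known. None of the 53 passed in limma, where their lowest adjusted p was 0.825 and 7 had an unadjusted p under 0.05. In all, 19 were higher and 34 lower, a smaller share lower than the 82.6% of all tested genes, and their median log2 change was −0.10, against −0.17 for all tested genes. The sensors and adaptors of inflammasomes, the platforms that activate Casp1, had 7 of 14 higher and a median of 0.00, or 0.16 after median ratio rescaling. Pycard, the adaptor, was at 139.8 and 124.4 FPKM in controls against 122.3 and 144.8 FPKM in mutants, and the sensor Nlrp6 at 104.2 and 103.3 against 77.5 and 98.4 FPKM. Naip6, of the receptors for bacterial proteins, was at 7.26 and 13.6 FPKM in controls against 24.9 and 15.2 FPKM in mutants (a log2 difference of 0.93 with SE 0.33; adjusted p = 0.825 by limma).

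The caspases and other proteases that act on gasdermins had 1 of 8 tested genes higher and 7 lower, near the 82.6% lower of all tested genes. Their median log2 change was −0.16, or 0.03 after median ratio rescaling and 0.00 without mutant 1. Casp1, which cuts Gsdmd, was at 190.9 and 190.2 FPKM in controls against 161.4 and 192.3 FPKM in mutants. It overlapped between the groups, and the 95% interval of its log2 difference ran from −0.51 to 0.28. Casp8, reported to cut gasdermin C proteins and chosen with its values in view, was at 70.8 and 67.3 FPKM in controls against 64.7 and 71.6 FPKM in mutants. Gzmb, a granule protease of cytotoxic lymphocytes that is also on the T and NK cell list, was at 23.9 and 22.9 FPKM in controls and 14.3 ± 1.77 FPKM (SD, n = 2) in mutants (a log2 difference of −0.70 with SE 0.19; adjusted p = 0.825 by limma).

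The genes of release and membrane rupture had 7 of 8 tested genes lower, near the 82.6% of all tested genes, and a median of −0.18. The median was 0.00 after median ratio rescaling and −0.43 without control 2. Ninj1, which ruptures the plasma membrane in lytic death, was at 49.7 and 36.5 FPKM in controls against 26.4 and 29.1 FPKM in mutants (a log2 difference of −0.61 with SE 0.21; adjusted p = 0.825 by limma). Chmp4b, a membrane repair subunit, was at 220.8 and 214.5 FPKM in controls against 176.7 and 201.4 FPKM in mutants. Il18, an interleukin let out by gasdermin pores and chosen with its values in view, was at 115.1 and 43.6 FPKM in controls against 110.0 and 49.2 FPKM in mutants. Its spread within each group was larger than the difference between the group means.

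Of the type 2 cytokine receptors and their signalling genes, 10 of 12 tested were lower, near the 82.6% of all tested genes, and the median was −0.24. It was −0.06 after median ratio rescaling, 0.02 without mutant 1 and −0.54 without mutant 2, and −0.13 without control 1. Il13ra1, a receptor chain for interleukin 13, was at 46.3 and 40.7 FPKM in controls against 36.4 and 44.8 FPKM in mutants. Stat6, the factor that acts below these receptors, chosen with its values in view, was at 43.0 and 32.5 FPKM in controls against 25.6 and 33.6 FPKM in mutants. Neither was apart between the groups. The cytokine genes Il4 and Il9 were listed at 0 in all libraries, Il5 and Il13 at 0 in 3 of 4.

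Of the type 2 cytokines and the genes listed with them, 8 of 10 tested genes were higher and 2 lower, at a median of 0.16. The 2 lower genes were Retnla (log2 difference −0.97) and Arg1 (−0.45). Which cells of the tissue gave the RNA of these genes was not tested. Of all tested genes, 82.6% were lower. The median was 0.34 after median ratio rescaling and kept its sign in 13 of 15 alternatives. It was −0.08 without control 2 and −0.12 without mutant 1, so its direction depends on single libraries. Retnlb, an antibacterial protein of goblet cells, was at 1607.8 and 853.3 FPKM in controls against 1231.1 and 1280.4 FPKM in mutants, and the 95% interval of its log2 difference ran from −0.53 to 0.73. Pla2g4c, a phospholipase gene, was at 1.77 and 1.57 FPKM in controls against 3.10 and 3.18 FPKM in mutants (a log2 difference of 0.75 with SE 0.23; adjusted p = 0.825 by limma), and Retnla at 28.4 and 13.2 against 9.21 and 10.1 FPKM. Sprr2a2 ranged most, from 237.5 FPKM in mutant 2 to 3903.3 FPKM in mutant 1.

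**Figure D5:**
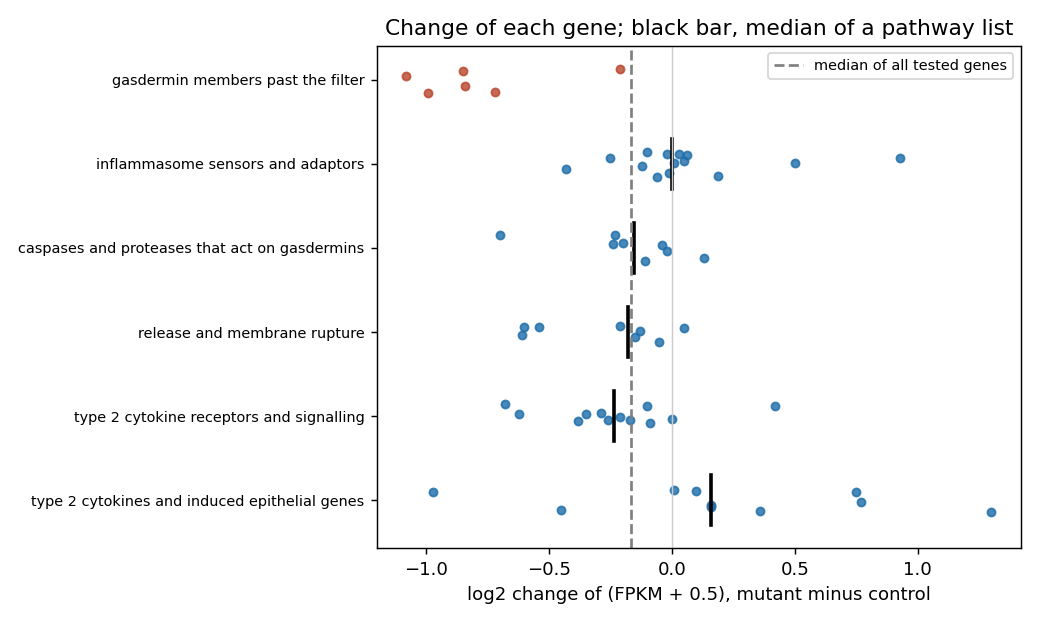
Change of each tested gene on the log2(FPKM + 0.5) scale, mutant minus control, for the 6 gasdermins past the filter (red) and the genes of 5 pathway lists (blue); black bars are medians of the pathway lists and the dashed line is the median of all tested genes, −0.17. The 5 members in the gasdermin C cluster lie between −1.08 and −0.72, and the list medians between −0.24 and 0.16.

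The 5 other genes with the profile closest to the mean of the 5 cluster members were found among 13991 tested genes by the distance of their centred log2 values over the 4 libraries. They were Crabp1 (distance 0.0529), Cyp4f18 (0.146), Rad9b (0.157), Phospho1 (0.180) and H2-DMb2 (0.192). Crabp1, which binds retinoic acid, was at 10.1 and 9.97 FPKM in controls against 5.92 and 4.85 FPKM in mutants. H2-DMb2, of the class II presentation pathway, was at 63.6 and 58.5 FPKM in controls against 31.0 and 28.5 FPKM in mutants. None of the 5 passed in limma, with adjusted p-values from 0.271 to 0.825. With 4 libraries a close profile is a description and many genes can share it.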

How the data were processed

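RNA-seq of 4 colon libraries was analysed, 2 per group as the titles give them. Per the submitters' processing notes, bcl2fastq 1.8.4, TopHat, Cufflinks and DESeq were used with build mm9. The authors deposited gene and isoform FPKM with 95% intervals, the coverage signal of each isoform, and a table of mean normalized counts (signal), fold ratios, log2 ratios and p-values. Rows without status OK in all libraries were left out (306 of 23699), rows of a symbol were summed, and symbols with a mean of at least 0.5 FPKM (13997 of 23074) entered limma 3.58.1 in R 4.3.3, on log2(FPKM + 0.5) (variance trend, Benjamini-Hochberg adjustment over all tested genes at 0.05). Of the 7 gasdermins 6 passed that filter. Fold changes on this scale understate changes of low genes. The members and lists were chosen with earlier results of these data known. Named list genes are those past the threshold, the 2 most abundant and, for pathway lists, the 2 with the smallest p, with the 5 nearest profiles and all genes within 500 kb of the cluster; others are said to be chosen later. An item that this rule names is not reported here.

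Files give no depth; relative depth is the ratio of coverage to FPKM, and implied fragments come from interval widths, counting error only. Coding sequences and exons come from GENCODE vM1 on the mm9 genome, aligned with Biopython 1.88. The windows of the gasdermin C genes were set by the deposited gene coordinates, and the 22220 background windows by GENCODE gene starts. On simulated data for the comparison over 13997 genes, with 50 changed genes per fold size, limma found 0% of 2-fold, 74% of 4-fold, 82% of 8-fold and 96% of 16-fold changes. The simulation shuffled the spreads among genes, drew normal noise, changed only more abundant genes and had no shift between libraries. These rates thus belong to that setting and need not hold for the measured libraries. Over all 13997 genes the deviations of same-numbered libraries were not correlated (r = -0.00217), which cannot show whether a part of the genes deviated together. No pairing is stated, so the numbers were not used as pairs. Alternatives covered the pseudocount, filter, scaling, summing, status, variance trend, replicate block, each library left out, and the authors' table.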

Additional observations from a re-analysis of the deposited data

How the results depend on the processing

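The summed gasdermin C change of −0.91 (log2) was negative in all 15 alternatives. It was −0.73 after median ratio rescaling, −0.78 in the authors' deposited table, and −1.06 to −0.76 with 1 library left out. Among the members Gsdmc turned, to 2.95 in the authors' deposited table. Gsdmc3 was −0.49 without mutant 2 and −0.95 without mutant 1. Gsdmcl-ps was −1.31 with a pseudocount of 0.1 and −0.60 with a pseudocount of 1. Genes past the limma threshold numbered 9 in all, and 3 after median ratio rescaling, 2 after quantile normalization, 2 with no filter on low values, and 8 to 362 with 1 library left out (124 without control 1, 362 without control 2, 8 without mutant 1, 12 without mutant 2). With the replicate block it was 195, including the 9; the libraries share a number and no pairing is stated. None of these changes of the count bears on the members, which have no test, and the cause was not tested. Medians near 0 turned sign in some alternatives, surface colonocytes between −0.24 and 0.09 and caspases between −0.21 and 0.07. Of 210 alternative values of 14 list medians, 191 moved by less than the spread between libraries. Low fragment numbers limit Gsdma and Gsdmcl-ps.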

Other observations

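Ang4, an antimicrobial ribonuclease gene of goblet and Paneth cells on the type 2 list, chosen with its values in view, was at 8.08 and 10.9 FPKM in controls against 42.7 and 13.1 FPKM in mutants.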
